A study of Mus musculus with 28 samples.

Results

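The nuclear-encoded respiratory chain genes code for the subunits of complexes I to IV that the cell makes in the cytosol and imports into mitochondria. They were picked from the RNA-seq table by name alone (Nduf followed by a, b, c, s or v and a number, Uqcr, Cox4 to Cox8, and Sdha to Sdhd, without names that hold -ps), which gave 71 of 55450 genes. By complex these were 7 core and 31 accessory subunits of complex I, 4 subunits of complex II, 8 of complex III and 21 of complex IV, where Ndufa4 and Ndufa4l2 were placed because the NDUFA4 protein belongs to complex IV. In GENCODE M21 (GRCm38) 67 of the 71 were protein-coding and 4 (Cox6c2, Ndufa11b, Ndufb4c and Ndufs6b) were processed pseudogenes, and they lay on 19 chromosomes. Among the genes outside the name rule, Cyc1, Ndufab1 and Cycs are given apart from the members. The 3 names left out for -ps were not looked at, and Ndufb1 is not among the members.

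The study followed a mouse Pre-B cell line, C10, as it turned into macrophages. C10 carries a transgene for C/EBPαER, rat C/EBPα fused to the hormone-binding domain of the estrogen receptor, which enters the nucleus once β-estradiol is added. All 12 RNA-seq libraries came from this 1 line, with 3 biological replicates from uninduced cells (0h) and 3 from each of the times 1h, 12h and 48h after 100 nM β-estradiol. The induced cultures also received 10 nM IL-3 and CSF-1, so that hormone, cytokines and time cannot be told apart, and no cells without the transgene were analysed here.

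The respiratory chain is a series of protein complexes in the inner mitochondrial membrane. Complex I takes electrons from NADH and complex II, which is also the succinate dehydrogenase of the citric acid cycle, takes them from succinate. Complex III passes them to cytochrome c and complex IV passes them on to oxygen. Complexes I, III and IV pump protons that ATP synthase uses. Complexes I, III and IV hold a few subunits coded by mitochondrial DNA beside many nuclear ones, and complex II is nuclear-encoded throughout.

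Expression was deposited as TPM (a transcript level per length that sums to the same total in each library) and holds no record of depth. CT010467.1 and AY036118, a pair of genes at a ribosomal RNA locus, took 70.3% to 82.9% of the TPM, so the values were divided by median-of-ratios size factors (from 0.628 to 1.56) and are called scaled TPM here. All 8 Pre-B markers fell and all 8 macrophage markers rose between 0h and 48h, whose summed levels were 322 to 349 and 4.18 to 4.93 scaled TPM in the 0h libraries and 42.8 to 51.0 and 971 to 1180 in the 48h libraries. None of 3 T cell, 3 erythroid and 3 fibroblast markers passed the filter on low values, and the highest summed level of any of these lists in a library was 0.0836 scaled TPM. The 48h replicate 3 library stood apart from replicates 1 and 2, with a higher summed level of members and a lower one of mitochondrially encoded genes (below).

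Of the 71 members, 63 passed the filter (a mean of at least 0.1 scaled TPM over the 12 libraries) and were tested with limma together with all 16212 genes that passed. At 0h the mean level of the tested members ran from 0.0476 to 46.3 scaled TPM with a median of 10.7, and at 48h the median was 5.57. The 8 members removed by the filter were Cox4i2, Cox6c2, Cox7b2, Cox8b, Cox8c, Ndufa4l2, Ndufa11b and Ndufs6b. Of these, 5 were listed at 0 in every library, and the highest value of any of the 8 in a library was 0.391 scaled TPM. Cox4i2 and Ndufa4l2 are known as forms that rise in hypoxia, Cox8b as a heart and muscle form and Cox7b2 and Cox8c as testis forms.

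The summed level of the 71 members was 823, 860 and 932 scaled TPM in the 0h libraries, 663, 647 and 719 at 1h, 623, 654 and 719 at 12h, and 428, 435 and 566 at 48h. On this scale every library at 1h and 12h lay below every 0h library, and every 48h library lay below all libraries of the earlier times, with 48h replicate 3 as the highest of its group. The means at 1h, 12h and 48h were 77.6%, 76.3% and 54.6% of the 0h mean. In TPM as deposited the sum was 848, 791 and 783 at 0h, 1033, 990 and 954 at 1h, 664, 728 and 973 at 12h, and 269, 312 and 425 at 48h. The order of 0h and 1h was thus the reverse there, with every 1h library and 12h replicate 3 above all 0h libraries, and the means were 123%, 97.7% and 41.5% of the 0h mean. The 48h libraries were the lowest on both scales. In bulk RNA a smaller number of cells of a type and less RNA per cell cannot be told apart. The 4 complexes were alike in this sum: at 48h complex I stood at 56.3%, complex II at 57.0%, complex III at 48.0% and complex IV at 55.5% of the mean at 0h.

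**Figure D1:**
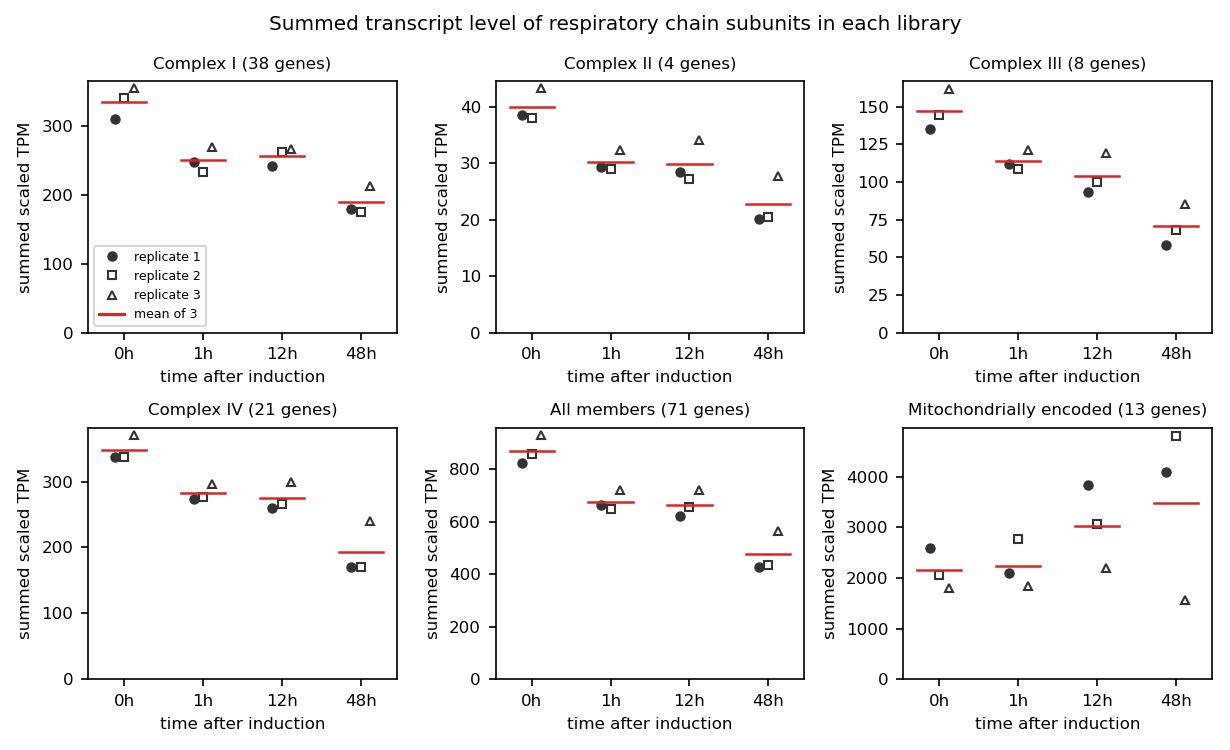
Summed level in scaled TPM (vertical axes, from 0) of the members of each complex, of all 71 members and of the 13 mitochondrially encoded genes, by time after induction (horizontal axes). Each symbol is 1 library, with replicates 1 to 3 as circle, square and triangle, and red lines are means of 3 libraries. In the panel of all members the 48h libraries, at 428, 435 and 566, lie below all the others, whereas those of the mitochondrially encoded genes spread from 1564 to 4803. The lower 1h sums hold on this scale and not in TPM as deposited.

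At 48h most of the chain was lower than at 0h. Of the 63 members tested, 42 fell and 1 rose (limma, Benjamini-Hochberg adjusted p under 0.05), whereas 22.3% of all genes tested fell and 25.2% rose. The median log2 fold change was -1.10 over the members and 0.09 over all genes tested. With a log2 change beyond 1 as well, 33 members fell, and 17.8% of all genes did. By complex, 3 of 7 core and 18 of 29 accessory subunits of complex I fell, as did 3 of 4 of complex II, 7 of 8 of complex III and 11 of 15 of complex IV. Of the 42 calls, 35 remained when only the 6 libraries compared were fitted, and without 48h replicate 3 there were 44 calls, 40 of them among the 42.

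**Figure D2:**
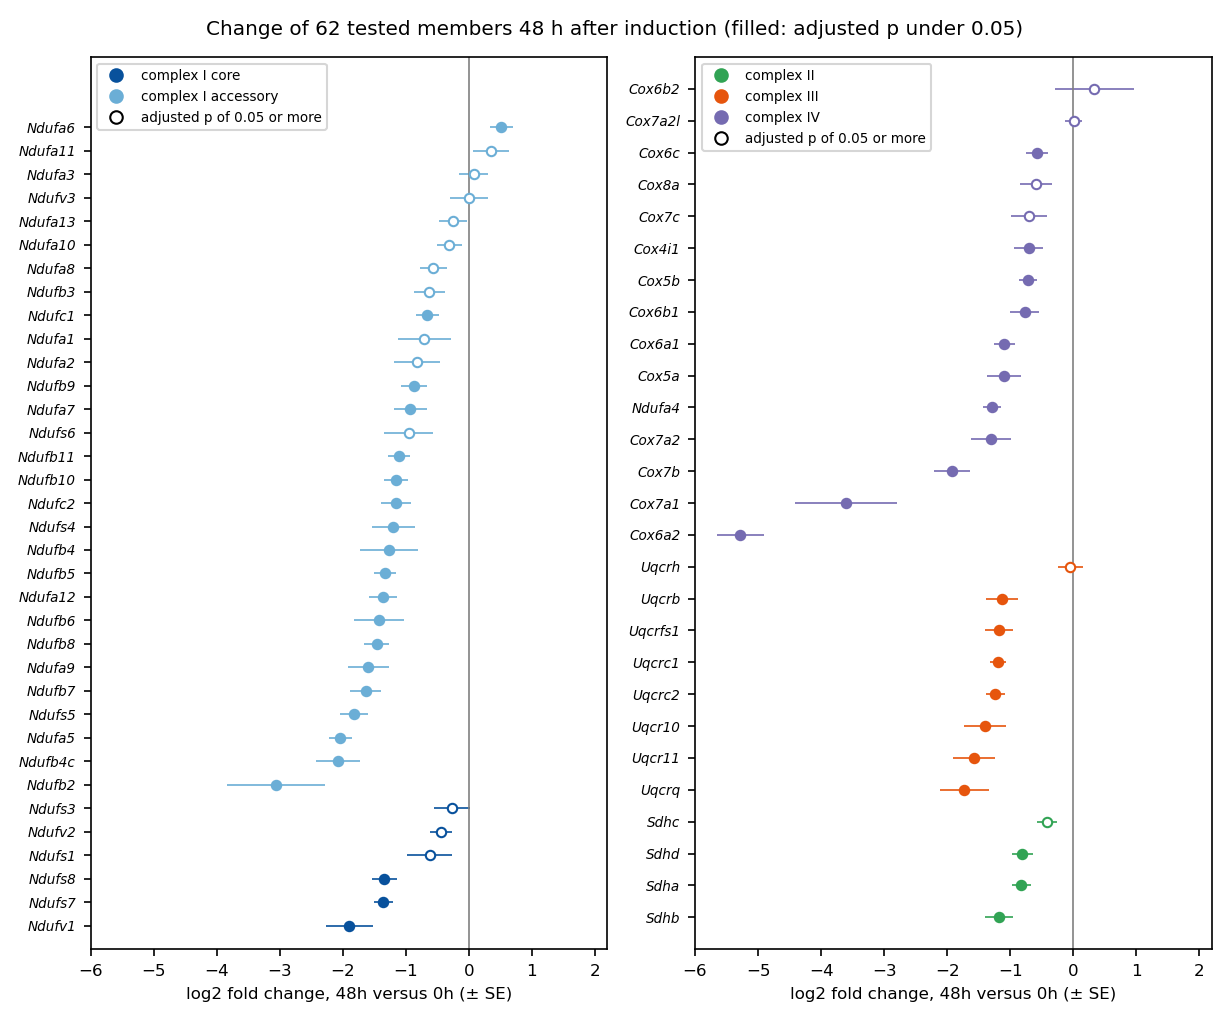
Log2 fold change at 48h against 0h with its standard error (horizontal axes) of 62 of the 63 members tested, ordered by complex and size of change (vertical axes), on the log2(scaled TPM + 0.1) scale. Filled points passed an adjusted p of 0.05 and open points did not, and the lowest points, Cox6a2 and Cox7a1, are genes listed at 0 in 48h libraries, so that their positions depend on the 0.1 added. All called points lie left of 0 except Ndufa6 at 0.52.

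The core subunits of complex I, which carry the flavin and iron-sulfur clusters and are the part shared with bacteria, were unlike in their response at 48h. Ndufv1 (chromosome 19, 4007384 to 4012806), the subunit that binds NADH, was at 5.77, 9.67 and 12.1 scaled TPM at 0h and at 1.26, 2.44 and 3.81 at 48h. The groups did not overlap, and the log2 fold change was -1.90 (SE 0.37, adjusted p = 0.00143, limma). Ndufs7 (chromosome 10, 80249121 to 80256794), an iron-sulfur subunit next to the quinone site, was at 10.4, 11.6 and 13.3 scaled TPM at 0h and at 4.24, 4.11 and 5.28 at 48h, a log2 fold change of -1.36 (SE 0.15, adjusted p = 2.73e-05, limma). Ndufs8, a further iron-sulfur subunit, fell by 1.34 on the log2 scale (SE 0.20, adjusted p = 0.000194, limma). Among the core subunits that did not pass the threshold, log2 fold changes were -0.62 for Ndufs1, -0.44 for Ndufv2 and -0.27 for Ndufs3 (adjusted p from 0.0606 to 0.468, limma). With TPM as deposited Ndufs1 and Ndufv2 passed (adjusted p = 0.0426 and 0.00473, limma), and Ndufv2 passed with quantile normalization (0.0463, limma).

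The accessory subunits surround the core and are needed to assemble or steady it. Ndufa5 (chromosome 6, 24518666 to 24528013) was at 8.15, 7.63 and 8.05 scaled TPM at 0h and stepped down to 1.59, 1.81 and 2.21 at 48h. Its 1h libraries (5.69, 5.13 and 5.14) and 12h libraries (3.67, 3.65 and 5.45) lay between, and it fell at 48h by 2.04 on the log2 scale (SE 0.18, adjusted p = 3.39e-06, limma). Ndufs5 (chromosome 4, 123712710 to 123718202) was at 8.11, 10.3 and 9.66 scaled TPM at 0h and at 2.14, 2.51 and 3.14 at 48h. It fell by 1.82 on the log2 scale (SE 0.22, adjusted p = 3.63e-05, limma), and its groups did not overlap.

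Some of the largest accessory changes rest on values that are low or shared. Ndufb2 (chromosome 6, 39592574 to 39603382) was at 4.22, 3.58 and 4.95 scaled TPM at 0h and at 0.0956, 0.237 and 2.00 at 48h, the last being replicate 3. Its log2 fold change was -3.06 (SE 0.78, adjusted p = 0.00724, limma), and its exons overlap Braf and Gm16272 on the opposite strand and Gm42420 on its own. Ndufb4c, a processed pseudogene on chromosome 15 (73809507 to 73809896), was at 18.3, 12.6 and 11.1 scaled TPM at 0h and at 1.61, 4.01 and 4.87 at 48h, and fell by 2.07 on the log2 scale (SE 0.35, adjusted p = 0.000562, limma). Its parent Ndufb4 was at 3.69, 2.68 and 1.89 scaled TPM at 0h and at 0.765, 1.69 and 0.878 at 48h (log2 fold change -1.27, SE 0.47, adjusted p = 0.0439, limma). Reads of the pair may have been divided between them in the TPM estimate, so each level is uncertain, and Ndufb4c held 83.7% of the summed level of the pair at 0h and 74.3% at 48h.

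Ndufa6 (chromosome 15, 82350140 to 82354322), an accessory subunit that binds the mitochondrial acyl carrier protein, was the only member that rose. It was at 9.94, 12.8 and 11.5 scaled TPM at 0h, 8.47, 6.32 and 10.5 at 1h, 13.9, 11.9 and 13.2 at 12h, and 17.6, 15.7 and 15.7 at 48h. The 48h libraries lay above all others, and the log2 fold change against 0h was 0.52 (SE 0.18, adjusted p = 0.0317, limma). This call was lost in TPM as deposited (0.11, adjusted p = 0.667, limma) and without 0h replicate 1, 0h replicate 3, 48h replicate 1 or 48h replicate 2 (adjusted p from 0.0546 to 0.107, limma). The share of Ndufa6 in the summed scaled TPM of complex I was 3.19%, 3.76% and 3.24% at 0h and 9.76%, 8.99% and 7.38% at 48h. The mean of Ndufa6 at 48h was 143% of that at 0h, and the mean of the sum was 56.3%. Ndufa11, Ndufa3 and Ndufv3 had log2 fold changes of 0.35, 0.08 and 0.01 at 48h and stayed short of the threshold (adjusted p from 0.34 to 1, limma).

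In complex II, 3 of the 4 subunits fell at 48h. Sdha (chromosome 13, 74322254 to 74350280), the flavoprotein that oxidises succinate, was at 9.95, 9.51 and 10.1 scaled TPM at 0h and at 4.61, 5.41 and 6.71 at 48h, a log2 fold change of -0.82 (SE 0.15, adjusted p = 0.00093, limma). Sdhb (chromosome 4, 140961203 to 140979193), the iron-sulfur subunit, was at 10.6, 12.3 and 15.1 scaled TPM at 0h and at 4.57, 5.07 and 7.18 at 48h, and fell by 1.18 on the log2 scale (SE 0.23, adjusted p = 0.00123, limma). Neither gene's 48h libraries overlapped its 0h libraries. Sdhd, one of the membrane anchors, fell by 0.81 (SE 0.17, adjusted p = 0.00253, limma). Sdhc, the other anchor, was at 9.10, 8.12 and 9.78 scaled TPM at 0h and at 6.77, 5.46 and 8.09 at 48h and missed the threshold (-0.42, SE 0.17, adjusted p = 0.0579, limma). Under the other 3 scalings Sdhc passed as well, so that all 4 subunits were called lower (adjusted p of Sdhc from 0.00872 to 0.0374, limma).

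Every member of complex III but Uqcrh fell at 48h. Uqcrc1 (chromosome 9, 108936633 to 108949623), a core protein that faces the matrix, was at 17.9, 18.4 and 17.9 scaled TPM at 0h and at 6.69, 8.21 and 8.67 at 48h, a log2 fold change of -1.20 (SE 0.12, adjusted p = 1.2e-05, limma). Uqcrq (chromosome 11, 53427922 to 53430831), a small membrane subunit, had the highest level among these members at 0h, at 33.6, 34.3 and 44.1 scaled TPM. It was at 4.99, 13.2 and 20.6 at 48h. Its 48h libraries were spread over a wide range but all lay below 0h, and it fell by 1.73 on the log2 scale (SE 0.39, adjusted p = 0.00348, limma).

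Uqcrh (chromosome 4, 116066965 to 116075071), the acidic hinge protein that lies beside cytochrome c1, was at 17.8, 19.5 and 25.3 scaled TPM at 0h and at 18.5, 17.3 and 24.9 at 48h. These groups overlapped, and the log2 fold change was -0.05 (SE 0.20, adjusted p = 0.882, limma). As a share of the summed scaled TPM of complex III, Uqcrh was 13.1%, 13.5% and 15.7% at 0h and 31.9%, 25.2% and 29.1% at 48h. Uqcrq made up 25.3% of that sum on average at 0h and 17.4% at 48h.

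**Figure D3:**
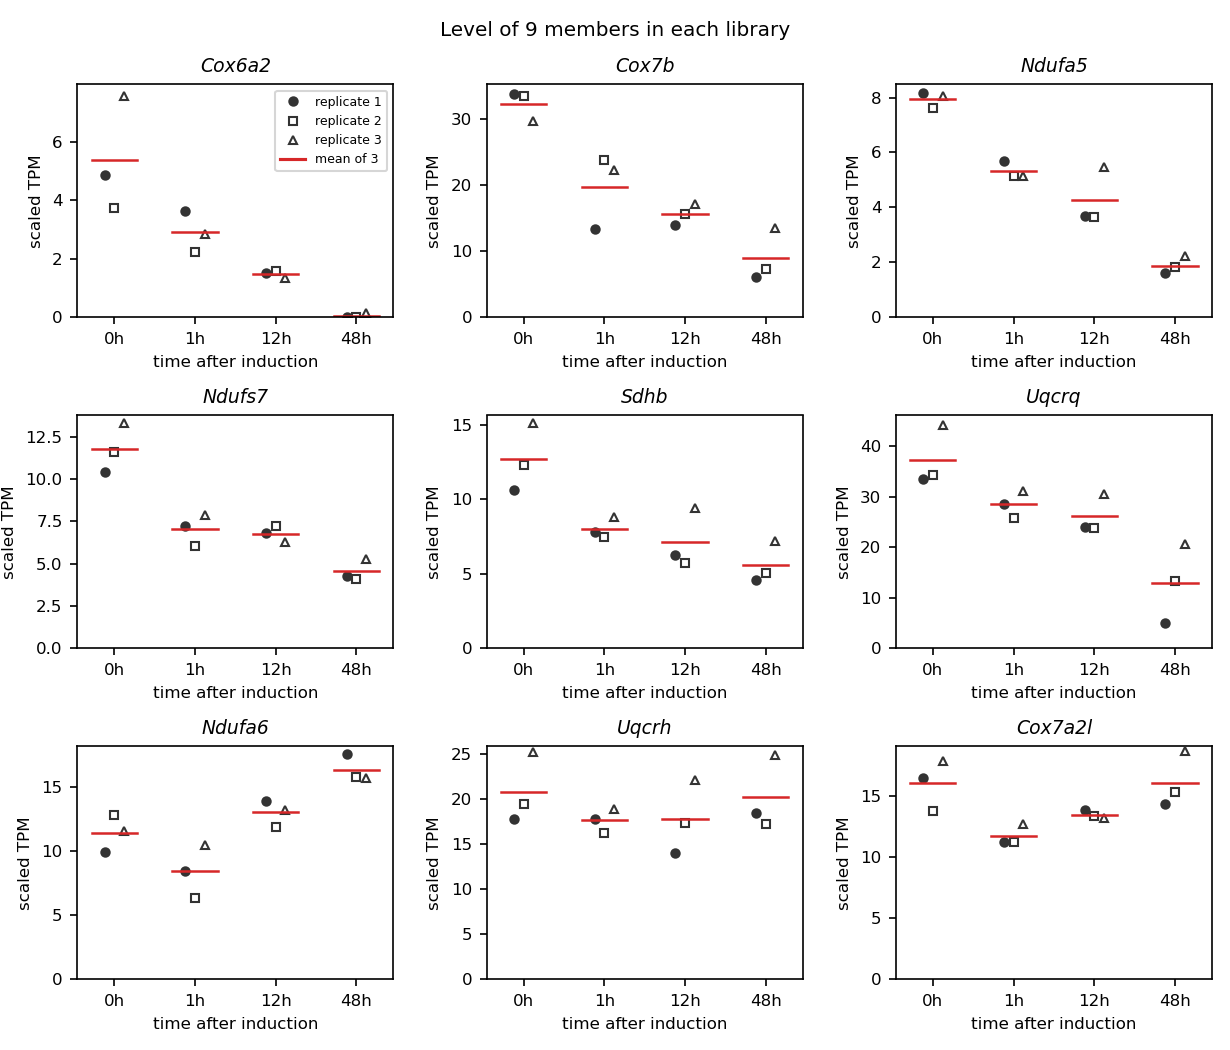
Level in scaled TPM (vertical axes, from 0) of 9 members in each library by time after induction (horizontal axes), with replicates 1 to 3 as circle, square and triangle and red lines for the mean of 3. The members of the upper 6 panels fell at 48h, with Cox6a2 at 0 in replicates 1 and 2. Ndufa6 is higher at 48h than in any other library, and Uqcrh and Cox7a2l overlap with 0h.

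Complex IV has several subunits with paralogues, of which one form is found in most cells and another mainly in muscle, testis or lung. Cox6a2 (chromosome 7, 128205435 to 128206387), the heart and muscle form of subunit 6a, was at 4.85, 3.73 and 7.57 scaled TPM in the uninduced Pre-B cells, 3.63, 2.22 and 2.83 at 1h and 1.49, 1.58 and 1.35 at 12h. At 48h it was listed at 0 in replicates 1 and 2 and at 0.146 in replicate 3, and the groups of 0h, 1h and 12h did not overlap with it or each other. The fitted log2 fold change, which depends on the 0.1 added, was -5.28 (SE 0.37, adjusted p = 5.85e-07, limma). Exons of Cox6a2 overlap Itgad on the opposite strand, and the libraries do not tell strands apart. Its ubiquitous counterpart Cox6a1 was at 33.5, 39.3 and 42.0 scaled TPM at 0h and at 14.9, 16.7 and 22.8 at 48h (log2 fold change -1.09, SE 0.17, adjusted p = 0.00026, limma). Cox6a2 thus made up 12.2% of the summed scaled TPM of the pair before induction and 8.87%, 4.76% and 0.213% at the later times.

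Cox7a1, the muscle form of subunit 7a, was low throughout: it was at 1.01, 0.858 and 1.61 scaled TPM at 0h and listed at 0 in all 48h libraries. It passed the test at 48h (adjusted p = 0.00347, limma), but not when replicate 3 was left out at every time point (adjusted p = 0.0913, limma). Cox7a2, the form found in most tissues, was at 14.97, 14.6 and 18.0 scaled TPM at 0h and at 5.23, 4.45 and 10.9 at 48h and fell at 48h (adjusted p = 0.00499, limma). Cox7a2l, a related protein that joins complexes III and IV into supercomplexes, was at 16.5, 13.8 and 17.9 scaled TPM at 0h, 11.3, 11.3 and 12.8 at 1h, 13.9, 13.4 and 13.2 at 12h, and 14.3, 15.3 and 18.7 at 48h. Its 48h and 0h libraries overlapped (log2 fold change 0.00, SE 0.14, adjusted p = 1, limma). Cox7a2l went from 50.3% to 71.4% of the summed scaled TPM of Cox7a2l and Cox7a2.

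Cox7b (chromosome X, 106015700 to 106022450), a small subunit of the membrane part, was at 33.8, 33.4 and 29.7 scaled TPM at 0h, 13.3, 23.7 and 22.3 at 1h, 13.9, 15.6 and 17.1 at 12h, and 6.09, 7.26 and 13.4 at 48h. It fell at 48h by 1.93 on the log2 scale (SE 0.28, adjusted p = 0.000195, limma), with no overlap between 48h and 0h. Ndufa4 (chromosome 6, 11900292 to 11907497) kept a level of 20.2, 20.02 and 18.2 scaled TPM at 0h through 19.6, 19.5 and 15.98 at 12h, and was at 7.51, 9.54 and 6.86 at 48h. It fell at 48h by 1.29 on the log2 scale (SE 0.14, adjusted p = 2.07e-05, limma), while the change at 12h was -0.09 (adjusted p = 0.677, limma).

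Cox4i1, the usual form of subunit 4 of complex IV, had the highest mean level of all members at 0h. It was at 45.0, 42.6 and 51.3 scaled TPM at 0h and at 23.7, 22.4 and 42.2 at 48h. It fell by 0.71 (SE 0.23, adjusted p = 0.0276, limma), a call that was lost without 0h replicate 1 or 3 or 48h replicate 1 or 2 and with only the 6 libraries compared (adjusted p from 0.0565 to 0.107, limma). Cox6b1 fell by 0.77 (adjusted p = 0.0145, limma), and its call was lost without 0h replicate 2 (0.0504) and with only the 6 libraries compared (0.0609). Cox6c fell by 0.58 (adjusted p = 0.0174, limma), and its call was lost without 0h replicate 2 (0.0606), without 48h replicate 3 (0.0545) and with rescaling without the 20 most abundant genes (0.0829). Cox8a was at 31.9, 34.6 and 50.4 scaled TPM at 0h and at 19.8, 20.5 and 40.2 at 48h, and its overlapping groups did not pass the threshold (log2 fold change -0.59, SE 0.26, adjusted p = 0.0823, limma). Under the other 3 scalings Cox8a passed (adjusted p from 0.00953 to 0.0296, limma). Cox6b2, the testis form of subunit 6b, was at most 0.544 scaled TPM in any library and passed in no comparison on that scale. With TPM as deposited it passed at 1h (1.67, adjusted p = 0.0481), at 12h (1.91, 0.024) and between 12h and 48h (-1.63, 0.0402), and with rescaling without the 20 most abundant genes at 12h (1.80, 0.0394, all limma).

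At 1h, when the C/EBPαER protein has just entered the nucleus, few members were called. None rose and 4 fell (limma), against 5.41% and 5% of all genes tested, and 22 members (34.9%) had an unadjusted p under 0.05 with a lower level, as did 12.1% of all genes tested. Ndufs7 was at 7.25, 6.02 and 7.85 scaled TPM at 1h and fell by 0.73 on the log2 scale (SE 0.15, adjusted p = 0.0119, limma). Ndufb10, an accessory subunit, went from 8.76, 11.1 and 9.003 scaled TPM at 0h to 5.76, 5.43 and 5.78 (log2 fold change -0.75, SE 0.19, adjusted p = 0.0315, limma). Ndufb9, also an accessory subunit, went from 10.2, 9.40 and 12.3 scaled TPM to 6.10, 6.19 and 6.32 (-0.76, SE 0.21, adjusted p = 0.0448, limma). Uqcrc2, a core protein of complex III, went from 10.5, 13.8 and 10.8 scaled TPM to 6.82, 8.36 and 7.33 (-0.63, SE 0.15, adjusted p = 0.0216, limma).

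These 4 genes were picked by the test on the same values, and in each the 1h libraries lay below all 0h libraries. The same held in members that were not called, such as Ndufa5 and Cox7b. The calls were fragile. The count was 1 without 0h replicate 2, 1h replicate 1 or 1h replicate 2, 2 without 0h replicate 1 or 3, and 3 without 1h replicate 3. In TPM as deposited, the median of all genes tested was 0.59 at 1h on the log2 scale, and 4 members rose while none fell. The median of the members was then 0.30, which is below that of all genes, and under every scaling tried it lay below the median of all genes tested. For transcripts up to 1000 nt, protein-coding genes outside the members came close to the members at 1h. The medians on the scaled values were -0.40 over 32 members and -0.34 over 559 other genes, with 9.38% and 7.69% lower. For longer transcripts the medians lay further apart. For those over 1000 and up to 2000 nt they were -0.39 over 20 members and -0.23 over 1823 other genes. For those over 2000 nt they were -0.22 over 11 members and -0.04 over 8796 other genes. In these longer classes the shares of members that fell, 5.0% and 0.0%, were below those of the other genes, 7.52% and 6.62%.

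At 12h the median of the members had moved little further on the scaled values, from -0.36 at 1h, though more members were called. In TPM as deposited the median had moved from 0.30 at 1h to -0.06. On the scaled values no member rose and 12 fell, against 16.2% and 14.7% of all genes tested (limma). The 12 were 7 when 12h replicate 1 was left out. The median log2 fold change of the members was -0.39 and that of all genes 0.06. In TPM as deposited 2 members rose and 1 fell, with a median of 0.34 over all genes tested and -0.06 over the members. The 5 largest decreases were those of Cox6a2 (-1.74, adjusted p = 0.00449), Ndufs5 (-1.10, 0.0028), Cox7b (-1.05, 0.016), Ndufa5 (-0.91, 0.00285) and Sdhb (-0.84, 0.0153, all limma). Sdhb was at 6.25, 5.70 and 9.43 scaled TPM at 12h, and its call was lost without 0h replicate 3, 12h replicate 1 or 12h replicate 2 (adjusted p from 0.0568 to 0.0635, limma), and that of Cox7b without 12h replicate 1 (adjusted p = 0.0583, limma). In TPM as deposited Cox6a2 kept its call and the other 4 lost theirs (adjusted p from 0.0641 to 0.194, limma), and with a pseudocount of 0.01 that of Cox6a2 was lost (0.142, limma).

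Between 12h and 48h none rose and 21 fell, against 10.9% and 12.1% of all genes tested (limma), with a median log2 fold change of -0.56. This count was sensitive to single libraries, with 11 without 12h replicate 2, 12 without 12h replicate 3, 13 without 48h replicate 1, 12 without 48h replicate 2 and 32 without 48h replicate 3. The largest decreases were those of Cox6a2 (-3.54, adjusted p = 4.7e-05), Ndufb4c (-1.43, 0.0137), Ndufv1 (-1.34, 0.0234), Uqcrq (-1.22, 0.0442) and Ndufa4 (-1.20, 0.000118, all limma). The call of Uqcrq was lost in 9 of 17 alternatives (adjusted p from 0.0599 to 0.197, limma), among them leaving out any 12h library or 48h replicate 1 or 2. That of Ndufv1 was lost in 5 of 17 (0.0508 to 0.103, limma), among them leaving out 12h replicate 1 or 3 or 48h replicate 1 or 2, and that of Ndufb4c in 3 of 17 (0.0528 to 0.0952, limma), among them leaving out 12h replicate 2. The calls of Cox6a2 and Ndufa4 were kept in every alternative run.

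**Figure D4:**
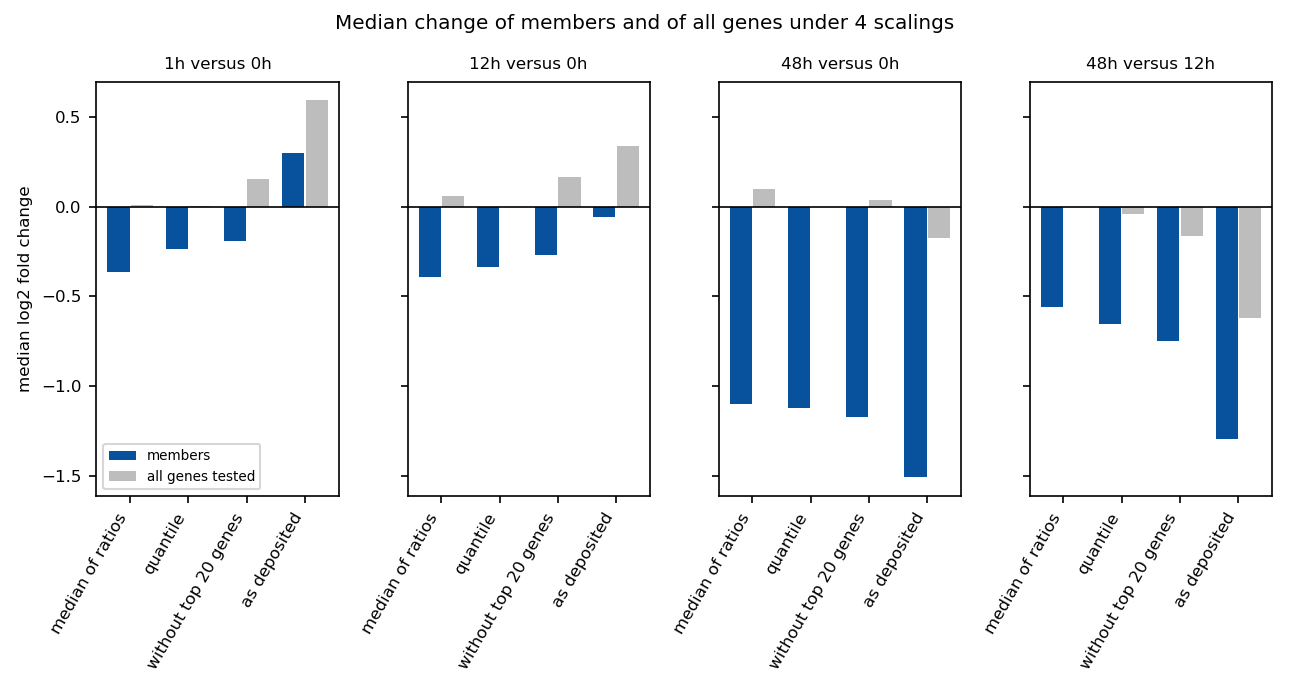
Median log2 fold change (vertical axes) of the 63 members (blue) and of all genes tested (grey) in each comparison under 4 ways of scaling the libraries (horizontal axes). The members lie below all genes in every panel, and at 1h both medians turn positive in TPM as deposited (0.30 and 0.59). At 48h against 0h the medians of the members run from -1.51 to -1.10.

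Most members are short genes, with a median longest transcript of 908 nt, and short transcripts were lower at 48h in general. Among tested protein-coding genes outside the members, 40.1% of those up to 1000 nt fell at 48h (n = 559), 36.3% of those over 1000 and up to 2000 nt (n = 1823) and 27.0% of those over 2000 nt (n = 8796). The members stood above this in each class, with 21 of 32 (65.6%), 14 of 20 (70.0%) and 7 of 11 (63.6%). The medians were -1.02, -1.18 and -0.82 for the members and -0.63, -0.35 and 0.02 for the other genes. At 12h the members did not stand above the other genes in each class by share. Of the members, 12.5%, 30.0% and 18.2% fell in the 3 classes, as did 27.0%, 23.0% and 18.4% of the other genes. By median the members were lower in each class at 12h, with -0.41, -0.38 and -0.43 against -0.36, -0.17 and -0.01 for the other genes. These classes were set up after the data had been seen, and the part of transcript length in the results was not tested.

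**Figure D5:**
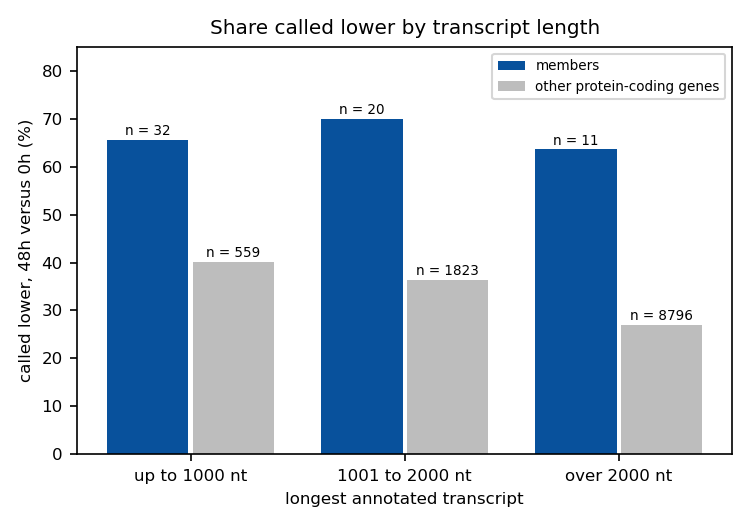
Share of genes that fell at 48h against 0h (vertical axis, percent, from 0; limma, adjusted p under 0.05) by length of the longest annotated transcript (horizontal axis), for members (blue) and other protein-coding genes (grey), with the number tested above each bar. The grey bars go from 40.1% to 27.0% with length and the blue bars stay between 63.6% and 70.0%.

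Promoters of respiratory chain genes are known for sites of NRF1 and of the ETS factor GABP, and for YY1 sites at the transcription start. RefSeq windows (GRCm38.p6, 250 bases before to 50 after the start) matched 53 of the 71 members and were searched on both strands for exact letters. The NRF1-type letters GCGCATGCG stood in 9.43% of these members (5 of 53), against 1.95% of all genes with a window and 4.23% of those tested. The ETS/GABP-type letters CCGGAAG stood in 20.8% of members (11 of 53), against 9.93% of all genes and 20.9% of those tested, so that members were close to expressed genes in general. The YY1-type letters AAGATGGCG stood in 9.43% of members (5 of 53), against 1.64% of all genes and 3.81% of those tested. The NRF1-type letters are nearly their own reverse complement, so a single stretch can match on both strands. A match is a run of letters and not a measured binding site.

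The stretches below show such letters, in capitals, in members that fell at 48h (Uqcr11, Ndufb6 and Sdhd) and in members that did not pass (Uqcrh and Ndufa11), to show that both kinds carry them. Each is written 5′ to 3′ on the strand of the gene and lies before the RefSeq start.
Uqcr11, ETS/GABP-type, chr10:80406866-80406902, minus strand: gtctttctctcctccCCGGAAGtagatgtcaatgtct
Ndufb6, ETS/GABP-type, chr4:40279632-40279668, minus strand: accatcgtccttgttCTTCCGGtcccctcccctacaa
Sdhd, ETS/GABP-type, chr9:50603874-50603910, minus strand: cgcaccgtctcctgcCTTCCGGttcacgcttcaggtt
Uqcrh, ETS/GABP-type, chr4:116075071-116075095, minus strand: gaggagtatgccgcaCTTCCGGcca
Ndufa11, NRF1-type, chr17:56717687-56717726, plus strand: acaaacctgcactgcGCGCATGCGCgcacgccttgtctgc

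The log2 fold changes at 48h were -1.57 for Uqcr11, -1.42 for Ndufb6, -0.81 for Sdhd, -0.05 for Uqcrh and 0.35 for Ndufa11. Uqcr11 and Uqcrh, both of complex III, both held the ETS/GABP-type letters within 66 bases of the start, and Uqcr11 also held NRF1-type letters at the start, which the window of Uqcrh did not. The 5 members with YY1-type letters (Ndufa9, Ndufc1, Ndufs4, Ndufs6 and Ndufs7) had log2 fold changes between -1.59 and -0.66, and Ndufs6 did not pass (adjusted p = 0.0655, limma). Such values are common among the members, of which 57 of 63 tested lay below 0, with a median of -1.10.

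Promoter Capture Hi-C, which lists contacts of promoter fragments with other fragments, was compared with expression by counting listed contacts per gene. Replicates of a time point had been merged before deposit, so the 4 lists carry no replicate error. Of the tested members 59 had a transcription start in a fragment that at least 1 of the 4 lists gives as a promoter fragment. Captured fragments without a contact in any list are not counted, so the shares that follow are raised by this choice. Of the 59, 93.2%, 93.2%, 96.6% and 86.4% had at least 1 listed contact at 0h, 1h, 12h and 48h (95% Wilson intervals from 75.5% to 99.1% over the 4 lists). Among all 10271 tested protein-coding genes with such a fragment these shares were 93.2%, 93.0%, 94.1% and 92.8%, each within the members' interval of that time. The median number of contacts of the members was 6, 9, 7 and 6, and that of all genes 8, 7, 7 and 7. From 0h to 48h, 24 members had more contacts, 28 had fewer and 7 had the same number, while 39.2% of all genes had more and 49.5% had fewer.

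Single members did not follow a common course in these lists. Cox6b1 had the most contacts of any tested member at 0h, with 74, 72, 35 and 22 in the 4 lists, and 19 of those of 0h were listed at 48h. The members of this paragraph were picked after their counts had been seen. Cox7b had 24, 25, 38 and 40 contacts at the 4 times while its level fell, and Sdhd had 8, 10, 16 and 28. Of the tested members 8 had no listed contact at 48h (Ndufa11, Ndufb7, Ndufb11, Ndufs4, Ndufs5, Ndufs8, Sdha and Uqcr11), and all of these but Ndufa11 fell in level (7 of 8), as did 33 of the 51 with a contact at 48h (64.7%). Ndufs4 and Ndufs8 had no listed contact at 0h either. Over all genes tested 22.3% fell at 48h, and that share was not split by contact. Whether contacts and level go together in the members was not tested. Several members share their fragment with another gene, as Sdhd with Timm8b and Uqcr11 with Mbd3, and contacts then belong to both.

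Many genes of the wider pathway, in lists drawn up by function, were lower too at 48h. For all the lists that follow, the shares to set beside them are 22.3% lower and 25.2% higher over all genes tested (limma). Of 18 genes of ATP synthase tested, 14 fell and none rose (median log2 fold change -1.22). Atp5b, the catalytic beta subunit, had a log2 fold change of -1.69 (SE 0.17, adjusted p = 8.02e-06, limma), from a mean of 120 scaled TPM at 0h to 37.5 at 48h. Atp5g1, for the membrane ring, fell by 2.98 (adjusted p = 0.000147, limma). Of the 3 genes given apart from the members, Cyc1 (cytochrome c1 of complex III) fell by 2.59 (adjusted p = 0.000217, limma). Ndufab1 (the acyl carrier protein) fell by 1.74 (adjusted p = 2.08e-05), while Cycs (cytochrome c) did not pass (-0.73, adjusted p = 0.118, both limma).

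The genes for pyruvate dehydrogenase and the citric acid cycle, which supply NADH and succinate, fell in 13 of 17 cases and rose in none, with a median of -0.87. Idh3a, a subunit of isocitrate dehydrogenase, fell by 2.57 (adjusted p = 9.62e-07, limma), and Pdha1, of pyruvate dehydrogenase, by 1.72 (adjusted p = 9.47e-06, limma). The assembly factors, which build the complexes without being part of them, were mixed, with 17 of 46 lower and 6 higher and a median of -0.73. Cox10, which makes the heme of complex IV, fell by 2.72 (adjusted p = 0.00101) and Ndufaf4, a complex I assembly factor, by 2.27 (adjusted p = 3.01e-05), whereas Cox20 rose by 1.48 (adjusted p = 0.00547) and Coa5 by 1.29 (adjusted p = 1.17e-05, all limma), both factors of complex IV assembly.

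Of 13 tested regulators of nuclear and mitochondrial respiratory genes, 8 fell and none rose at 48h, against 22.3% and 25.2% of all genes tested. Tfam, which packages and transcribes mitochondrial DNA, fell by 1.60 (adjusted p = 0.000951), Pprc1, a coactivator, by 1.97 (adjusted p = 0.000608), Myc by 1.38 (adjusted p = 1.16e-05) and Nrf1 by 0.87 (adjusted p = 0.00277, all limma). Gabpa and Yy1 did not pass, with log2 fold changes of -0.27 and 0.19 (adjusted p = 0.51 and 0.704, limma).

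The 13 subunits coded by mitochondrial DNA did not show the decrease of the nuclear members. None rose and 1 (mt-Nd3) fell at 48h, with a median log2 fold change of 0.66 (limma). Their summed level was 2583, 2061 and 1802 scaled TPM at 0h and 4091, 4803 and 1564 at 48h, where replicate 3 lay below all other libraries. The mean of the sum at 48h was 162% of that at 0h, with overlapping groups. In TPM as deposited it was 118%, and the groups overlapped there too. Of the 13, 5 were below 1 scaled TPM in at least 1 library and 4 of these were listed at 0 there, although the summed level was at least 1564 in every library, so single genes of this set are uncertain. The level of mt-Co1, the catalytic subunit of complex IV, was 671, 537 and 437 scaled TPM at 0h and 1082, 1141 and 498 at 48h (log2 fold change 0.66, SE 0.35, adjusted p = 0.153, limma). Whether the change of nuclear members differed from that of the mitochondrial ones was not tested.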

How the data were processed

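RNA-seq TPM of 12 libraries of C10 cells and the Promoter Capture Hi-C lists of 4 time points were used, and Hi-C was not used here. For the deposited TPM the authors merged technical replicates, trimmed the single-end reads of rRNA-depleted total RNA with Trim Galore 0.6.2, mapped them with HISAT2 2.1.0 to mm10 and estimated TPM with RSEM on Ensembl annotation. The library kit does not mark strand. The contact lists are CHiCAGO calls that the authors made on 2 replicates pooled per time. Each contact of the deposited 0h list carries a CHiCAGO score of at least 5, and the unit of the numbers in the other 3 lists is not given in the sources used here, so presence in a list was counted.

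TPM were divided by median-of-ratios size factors from the 11246 genes above 0 in all libraries, since ribosomal RNA genes took most of the TPM. The 16212 genes with a mean of at least 0.1 were tested on log2(scaled TPM + 0.1) with limma 3.58.1 in R 4.3.3 (eBayes with a trend, all 12 libraries in 1 model), with Benjamini-Hochberg adjustment. Fold changes are on that scale and understate the change of low genes. "Rose" and "fell" mean an adjusted p under 0.05. The script was tested on simulated data. TPM give no depth, so no counting intervals are given for levels. The p-values measure the spread between cultures of 1 line.

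For each comparison the 5 members with the largest called increase and the 5 with the largest decrease, at a mean of at least 1 scaled TPM, were named, with all complex II subunits, complex I core subunits, paralogue families and members removed by the filter, of which 1 is not reported here. The members and lists were chosen with earlier results of these data known. Alternatives varied the scaling, pseudocount, filter, trend, libraries, block and size threshold. All 55450 gene names matched GENCODE M21, and 3 names of ATP synthase genes were matched through RefSeq synonyms, with 1 (Atp5if1) not matched. A gene was tied to each captured HindIII fragment that holds one of its transcription starts. Joins and summaries were made in Python 3.11.15 (pandas 2.3.3, numpy 2.4.6, scipy 1.17.1).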

Additional observations from a re-analysis of the deposited data

How the results depend on the processing

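The 48h decrease was the firmest result: from 33 (with a log2 change beyond 1) to 53 members fell against 0h over the alternatives run, and 40 to 44 when single libraries were left out. The rise of Ndufa6 at 48h was lost, leaving 0 members higher, with TPM as deposited, with rescaling without the 20 most abundant genes, with quantile normalization, without a trend, with a log2 change beyond 1 and when replicate 3 was left out at every time point (an alternative chosen after seeing the data), and the count was 0 to 1 over single libraries left out. At 1h 0 members fell with TPM as deposited, where 4 rose and the value of Uqcrc2 turned to 0.025. There were 1 with rescaling, 1 with quantile normalization, 2 without a trend, 8 with only the 6 libraries compared, 0 with a log2 change beyond 1 and 1 to 3 over single libraries left out.

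At 12h 1 member fell and 2 rose with TPM as deposited, 3 fell with a log2 change beyond 1, and 7 to 13 fell over single libraries left out. There was 1 member higher at 12h with rescaling, with only the 6 libraries compared and without replicate 3 throughout, and 0 to 1 over single libraries left out. At 48h against 12h, 56 members fell with TPM as deposited, 35 with rescaling, 12 without a trend, 7 with only the 6 libraries compared, 7 with a log2 change beyond 1 and 11 to 32 over single libraries left out. The scaling moves all genes of a library together. With TPM as deposited the median of all genes was 0.59, 0.34, -0.18 and -0.62 in the 4 comparisons. The part of this shift in the counts and the causes of the other differences were not tested.

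With the replicate number as a block (replicate block) 9 members fell at 1h, 19 fell and 1 rose at 12h, 47 fell at 48h and 28 fell between 12h and 48h. The numbers were not taken as pairs, since only 7 of 18 same-numbered pairs of libraries had a correlation of deviations over 0.1. With correlations averaged by replicate number over the other time points, 7 of 12 libraries correlated best with their own number. These 7 pairs were 2 of 6 for replicate 1, 0 of 6 for replicate 2 and 5 of 6 for replicate 3, whose libraries deviated together (0.0818 to 0.263). The libraries of replicate 3 correlated below 0 with those of other numbers in all 24 pairs. This is partly forced, since deviations from the mean of a time point cancel among its libraries. Of 40 named log2 fold changes that passed, 16 kept their call under every alternative run and 1 (Uqcrc2 at 1h) reversed. With a 0h score of at least 10, 45.8% of tested members and 53.2% of all genes had a listed contact. In the bases before the start alone, 0.0% of members held the YY1-type letters, as did 0.71% of all genes and 1.52% of those tested. The NRF1-type letters stood there in 5.66% of members, 1.64% of all genes and 3.53% of those tested. For the ETS/GABP-type letters these shares were 15.09%, 7.83% and 16.21%. TPM keep no depth, so how depth limits low members such as Cox7a1 is unknown.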
